A study of Mus musculus with 18 samples.

Results

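The semaphorins, plexins and neuropilins were followed here in the hippocampus of C57BL/6 mice, either wild type (WT) or carrying a conditional Arid1a knockout (cKO). Arid1a is a DNA-binding subunit of the BAF chromatin remodelling complex. Members were every gene whose symbol names a class 3 to 7 semaphorin (Sema3 to Sema7), a plexin (Plxn) or a neuropilin (Nrp), which gave 31 of the 55385 genes in the deposited tables: 20 semaphorins, 9 plexins and 2 neuropilins. Poly(A) RNA was sequenced at postnatal day 21 (P21) from 2 WT and 2 cKO samples, and at embryonic day 16.5 (E16.5) from 3 WT and 3 cKO samples. Chromatin was profiled at 3 weeks for H3K4me3, H3K27ac and H3K27me3, with 1 library per mark and genotype. The sources used here do not give the Cre driver, the cells that lose Arid1a or the number of animals behind a sample. The series' design calls the RNA samples biological replicates.

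Semaphorins are secreted or membrane-bound cues that steer growing axons and dendrites and act on synapses, myelinating cells and vessels. Plexins are their receptors, whose intracellular part acts on small GTPases and through them on the cytoskeleton. Neuropilins bind most class 3 semaphorins and pair with class A plexins, while membrane-bound classes mostly bind plexins directly. In the hippocampus these genes are known for guiding mossy fibres and other afferents to their layers and for the pruning of axons and spines.

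The P21 libraries held 20089455 to 20331994 counts and the E16.5 libraries 17662154 to 19760616, and all 31 members passed the filter on low counts at both ages. Arid1a itself was lower in cKO at P21 (log2 change -1.08 ± 0.13 SE, edgeR adjusted p = 0.00507) and at E16.5 (-0.64 ± 0.06 SE, adjusted p = 0.032). The tissue is a mixture, and fewer cells of a type cannot be told apart from less RNA per cell. One library stood apart from its group. In cKO replicate 1 at E16.5 the members differed from those of the other cKO libraries by a root mean square of 0.89 and 1.03 on the log2 scale, against 0.40 between cKO replicates 2 and 3. In the same library the 8 dentate granule neuron markers summed to 39.4 CPM (counts scaled to library size), against 87.2 and 87.7 in the other cKO libraries and 124 to 144 in WT. E16.5 results are therefore also given without it. Xist, the transcript of the inactive X chromosome in females, split the libraries by replicate number and alike in both genotypes: at P21 it had 37 and 21 counts in replicate 1 of WT and cKO and 4914 and 3572 in replicate 2, and at E16.5 6491 to 9159 counts in replicates 1 and 2 and 7 and 10 in replicate 3. Each genotype thus held the same mix of libraries with and without Xist at an age, and the mix differed between ages. Plxna3 and Plxnb3 are X-linked.

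The sequences before the start sites are shown for those members that fell in cKO at P21, and have a start in the RefSeq table, and for Sema5b, which had the strongest H3K27me3 peak of any member at a start. Each run is the 250 bases before the annotated start on the gene's strand, from RefSeq on build GRCm38.p6, written 5′ to 3′, with every CG pair, the site of DNA methylation, in capitals. CG reads the same on both strands.
Plxnb3: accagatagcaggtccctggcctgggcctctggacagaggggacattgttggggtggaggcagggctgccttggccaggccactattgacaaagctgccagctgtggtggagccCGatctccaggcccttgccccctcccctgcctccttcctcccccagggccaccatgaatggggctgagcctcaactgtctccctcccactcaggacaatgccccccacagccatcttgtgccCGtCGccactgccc
Plxna3: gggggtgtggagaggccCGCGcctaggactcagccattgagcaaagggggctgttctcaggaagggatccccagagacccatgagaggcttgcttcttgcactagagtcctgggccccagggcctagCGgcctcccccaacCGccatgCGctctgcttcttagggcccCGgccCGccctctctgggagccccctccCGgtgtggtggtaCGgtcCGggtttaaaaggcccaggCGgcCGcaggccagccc
Plxnd1: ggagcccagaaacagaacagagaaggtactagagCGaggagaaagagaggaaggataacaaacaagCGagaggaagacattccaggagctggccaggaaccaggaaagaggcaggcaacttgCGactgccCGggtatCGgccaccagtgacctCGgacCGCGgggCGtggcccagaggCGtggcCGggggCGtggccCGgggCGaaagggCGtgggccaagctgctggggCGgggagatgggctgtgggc
Sema6d: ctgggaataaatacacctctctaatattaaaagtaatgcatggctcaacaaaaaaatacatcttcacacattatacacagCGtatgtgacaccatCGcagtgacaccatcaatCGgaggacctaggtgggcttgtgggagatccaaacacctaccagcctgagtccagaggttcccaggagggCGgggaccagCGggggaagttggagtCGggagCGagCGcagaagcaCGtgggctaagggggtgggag
Sema5b: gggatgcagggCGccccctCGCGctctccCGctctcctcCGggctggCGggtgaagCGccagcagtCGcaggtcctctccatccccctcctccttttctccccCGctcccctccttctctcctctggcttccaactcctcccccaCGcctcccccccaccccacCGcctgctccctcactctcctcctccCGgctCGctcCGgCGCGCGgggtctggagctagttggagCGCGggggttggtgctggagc
Plxnb3 (chrX:73756853-73757102, plus strand) held 3 CG pairs, and 78.5% of the 20404 promoter windows of protein-coding genes held at least as many. Plxna3 (chrX:74328816-74329065, plus strand) held 12, Plxnd1 (chr6:115995006-115995255, minus strand) held 16 and Sema6d (chr2:124089719-124089968, plus strand) held 9, against a median of 10 over all windows. Sema5b (chr16:35541112-35541361, plus strand) was the richest of those shown with 19, a count reached by 26.9% of all windows. Plxnb3 was thus the poorest in CG pairs of those shown.

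At P21, 4 of 9 plexins and 1 of 20 semaphorins were lower in cKO, and neither neuropilin passed the test. The difference between these groups of genes was not tested. The members that fell were Plxnb3, Plxna3, Plxna4, Plxnd1 and Sema6d. That is 16.1% of the members, where 3.91% of the 17407 tested genes were lower (edgeR's quasi-likelihood test, Benjamini-Hochberg adjusted p under 0.05 over all genes). No member was higher by edgeR or by DESeq2, against 2.81% and 3.1% of the genes tested by each, and DESeq2 called 6 lower, against 5.45%. At an unadjusted p under 0.05, edgeR had 2 members higher and 13 lower, where 11.7% and 13.2% of genes were. The median log2 change was -0.26 over the members and 0.01 over all genes.

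**Figure D1:**
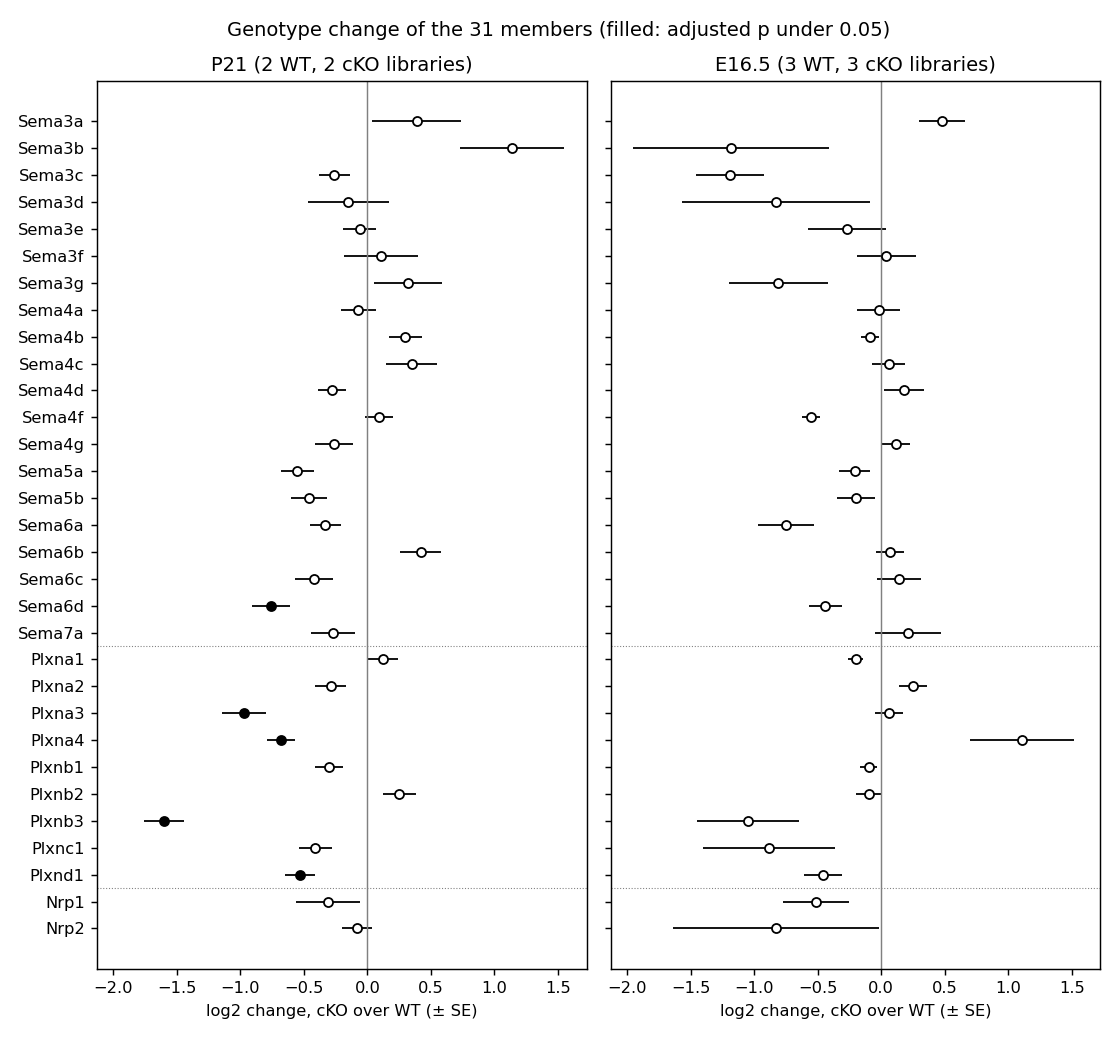
Log2 change of each of the 31 members in cKO relative to WT at P21 and at E16.5 on the horizontal axis, with the standard error as a bar; filled points passed an adjusted p under 0.05. The 5 filled points are all at P21 and on the lower side.

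Among the plexins, Plxnb3, a class B receptor known from oligodendrocytes, had 32.6 and 29.3 CPM in WT and 11.6 and 8.88 in cKO. Both cKO libraries lay below both WT libraries, and the change of -1.60 ± 0.16 (SE, log2) was the largest of any member (edgeR adjusted p = 0.00326). The oligodendrocyte lineage markers moved with it: 8 of 12 were lower, against 3.91% of all genes, and none was higher. Their summed level was 7330 and 7880 CPM in WT and 4720 and 4370 in cKO, with no marker at 0. Their part in the result was not tested.

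Plxna3, a receptor of class 3 semaphorins with neuropilins, had 35.4 and 28.1 CPM in WT and 18.1 and 14.2 in cKO (log2 change -0.97 ± 0.17 SE, edgeR adjusted p = 0.0195). Plxna4, the receptor that with neuropilin 1 relays Sema3a and that also binds class 6 semaphorins, had 234 and 252 CPM in WT and 157 and 146 in cKO (-0.68 ± 0.11 SE, adjusted p = 0.0127). Plxnd1, the receptor of Sema3e best known in vessels and in some neurons, had 41.1 and 36.1 CPM in WT and 27.8 and 25.7 in cKO (-0.53 ± 0.12 SE, adjusted p = 0.0459). In each of these genes both cKO libraries were below both WT libraries, as in 27.9% of all tested genes. Plxnd1 lay closest to the threshold. With cKO replicate 2, WT replicate 1 or WT replicate 2 left out its adjusted p was 0.0529, 0.276 and 0.128. The call of Plxna3 ended without WT replicate 1 (adjusted p = 0.053), and that of Plxna4 without WT replicate 2 (0.0777).

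The dentate granule neuron markers were lower at P21 as well. Of 8, 5 were lower and none was higher, and their sum was 559 and 623 CPM in WT and 317 and 289 in cKO. Prox1, the transcription factor that defines granule neurons, had 139 and 146 CPM in WT and 50.1 and 28.5 in cKO. Of the 8 microglia markers 5 were lower, with sums of 243 and 221 CPM in WT and 132 and 138 in cKO. Endothelial and mural markers went both ways, with 2 of 9 higher and 1 lower, and sums of 238 and 205 CPM in WT and 272 and 248 in cKO. Other lists rose, went both ways or did not move. Of 8 CA2 and CA3 pyramidal markers 3 were higher and 1 lower, and of 8 radial glia and progenitor markers 3 were higher and 1 lower. Of 7 striatal markers 3 were higher and 0 lower. Astrocyte markers had 1 of 8 higher and 3 lower, and of 8 interneuron markers 0 passed. Over all genes, 2.81% were higher and 3.91% lower. The part of these markers in the plexin results was not tested.

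The other plexins did not pass the test. Plxnc1, the receptor of Sema7a, had 31.7 and 36.1 CPM in WT and 26.9 and 24.1 in cKO (log2 change -0.41 ± 0.13 SE, edgeR adjusted p = 0.1). Plxna2 (-0.29, edgeR adjusted p = 0.183) and Plxnb1 (-0.30, adjusted p = 0.156), the class B receptor of Sema4d, had cKO wholly below WT. So did 27.9% of all tested genes. Plxna1 (0.12) and Plxnb2 (0.25) had overlapping groups.

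**Figure D2:**
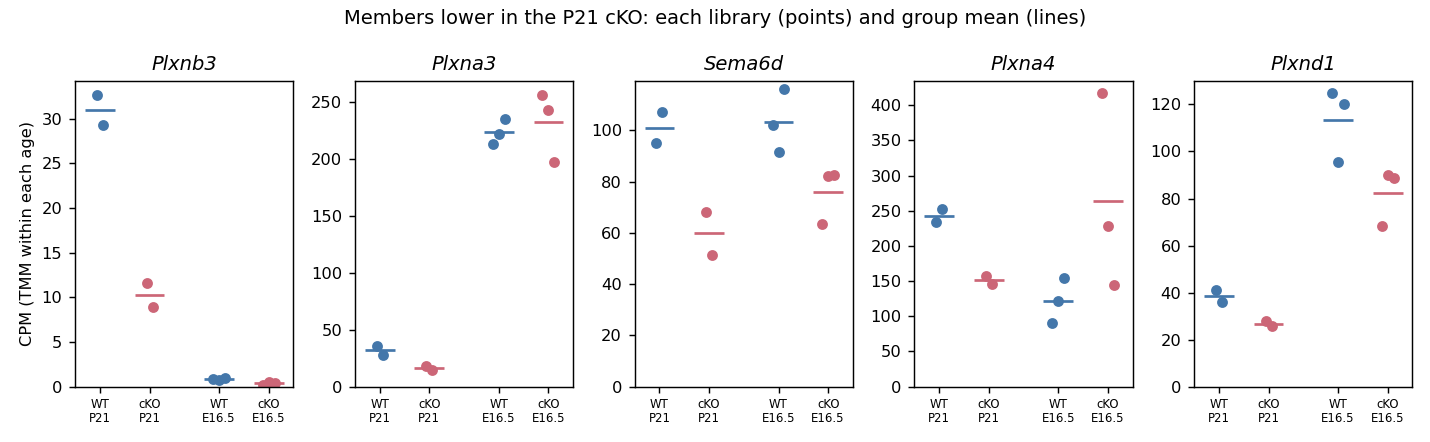
Level in CPM of each member that was lower in cKO at P21, one panel per gene, with a point per library and a line at the group mean for WT and cKO at P21 and E16.5; the ages were scaled separately. At P21 all cKO points lie below all WT points in each panel, while at E16.5 Plxna3 and Plxna4 overlap between genotypes.

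Of the semaphorins, Sema6d, a transmembrane ligand of class A plexins, had 95 and 107 CPM in WT and 68.3 and 51.4 in cKO (log2 change -0.76 ± 0.15 SE, edgeR adjusted p = 0.029). Its call ended when WT replicate 2 was left out (adjusted p = 0.124). Class 5 came next. Sema5a, a transmembrane ligand with thrombospondin repeats, had 159 and 185 CPM in WT and 129 and 106 in cKO (-0.55 ± 0.13 SE, adjusted p = 0.0528), and passed with DESeq2 (adjusted p = 0.00436). Sema5b had 24.4 and 21.2 CPM in WT and 15.8 and 17.3 in cKO (-0.46 ± 0.14 SE, adjusted p = 0.0903). In both, cKO lay wholly below WT, as in 27.9% of all tested genes.

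Class 3, the secreted ligands, had no member past the threshold, and its 7 log2 changes ran from -0.26 to 1.14 with a median of 0.11. The highest was Sema3b, with 4.51 and 3.26 CPM in WT and 11.9 and 5.27 in cKO (1.14 ± 0.41 SE, edgeR adjusted p = 0.159). It was highest in cKO replicate 1, and in that library the choroid plexus transcript Ttr had 3430 CPM, against 949 to 1300 in the other P21 libraries. The part of choroid plexus in this value was not tested. Class 4 had 6 members between -0.28 and 0.35. Closest to the threshold was Sema4d, a ligand of Plxnb1, with 89.7 and 85 CPM in WT and 68.2 and 75.3 in cKO (-0.28 ± 0.11 SE, adjusted p = 0.15). Sema7a, the membrane-anchored ligand of Plxnc1, had 101 and 108 CPM in WT and 70.5 and 102 in cKO (-0.27 ± 0.17 SE, adjusted p = 0.378). In class 4, Sema4b had 19.6 and 18.6 CPM in WT and 21.6 and 25.3 in cKO (0.30, adjusted p = 0.218). Where 27.9% of all tested genes lay wholly below WT, class 6 had 3 of its 4 members there. Besides Sema6d, these were Sema6a, with 39.1 and 34.2 CPM in WT and 28.1 and 30.3 in cKO (-0.33 ± 0.12 SE, adjusted p = 0.152), and Sema6c, with 41.4 and 31.6 CPM in WT and 26 and 28.5 in cKO (-0.42 ± 0.15 SE, adjusted p = 0.138), and neither passed the test. Sema6b was the exception, with cKO above WT, 122 and 109 CPM in WT and 131 and 178 in cKO (0.42 ± 0.16 SE, adjusted p = 0.155). Leaving out cKO replicate 1 moved Sema6b to 0.63 (adjusted p = 0.0029), and leaving out cKO replicate 2 moved Sema3b to 1.61 (adjusted p = 0.00328).

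Neither neuropilin passed at P21. Nrp1, the co-receptor of Sema3a, had 39.7 and 41.4 CPM in WT and 40.9 and 24.3 in cKO (log2 change -0.31 ± 0.25 SE, edgeR adjusted p = 0.493), with cKO replicate 1 at the WT level and replicate 2 below it. Without replicate 1 it passed (-0.74, adjusted p = 0.00193). Nrp2, the co-receptor of Sema3f, had 116 and 112 CPM in WT and 116 and 98.5 in cKO (-0.08 ± 0.12 SE, adjusted p = 0.713). Over all members, cKO lay wholly below WT in 14 (45.2%, against 27.9% of tested genes) and wholly above in 4 (12.9%, against 28.2%).

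At E16.5 no member passed edgeR's test, where 0.124% of the 16958 tested genes did (0.0118% higher and 0.112% lower). With no adjustment, at a p under 0.05, 2 members were higher and 7 lower, where 9.13% and 11.5% of genes were. DESeq2 called 0 members higher and 3 lower, Sema3c, Sema4f and Sema6a, against 2.22% and 4.5% of its tested genes. The cKO libraries lay wholly below WT in 10 members (32.3%, against 15.3% of tested genes) and wholly above in 1, Sema3a (against 14%).

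The ligand closest to the threshold was Sema4f, a class 4 transmembrane semaphorin, with 62, 59.9 and 64.9 CPM in WT and 39.1, 44.9 and 43.9 in cKO (log2 change -0.55 ± 0.07 SE, edgeR adjusted p = 0.0752). The 3 cKO libraries sat together below the 3 WT libraries. Sema3c, a secreted ligand that can attract cortical axons, had 139, 111 and 176 CPM in WT and 42.1, 75.2 and 69.8 in cKO (-1.19 ± 0.27 SE, adjusted p = 0.144). Sema6a, a transmembrane ligand of Plxna2 and Plxna4, had 118, 118 and 110 CPM in WT and 45.2, 77.3 and 83.4 in cKO (-0.75 ± 0.22 SE, adjusted p = 0.179). In all of these the groups did not overlap. Without cKO replicate 1 the changes were -0.47 for Sema4f (adjusted p = 0.0981), -0.95 for Sema3c (0.186) and -0.50 for Sema6a (0.094).

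Several members at E16.5 rested on cKO replicate 1. Nrp2 had 22.4 CPM in that library, against 271 and 280 in the other cKO and 307 to 401 in the WT libraries, and its log2 change of -0.83 ± 0.81 (SE) became -0.28 without it. Plxna4 had 418 CPM there, against 229 and 145 in the other cKO libraries and 89.8 to 154 in WT, and its change of 1.11 ± 0.41 (SE, edgeR adjusted p = 0.215) became 0.64. Plxnc1 had 8.47 CPM there, against 25.3 and 40.5, and Nrp1 46.3 CPM, against 92.5 and 84.3. Sema7a was high there, with 154 CPM against 98.5 and 75.6 in the other cKO libraries. Of the other members lower at P21, Plxnb3 had 0.894, 0.719 and 0.974 CPM in WT and 0.224, 0.565 and 0.45 in cKO at E16.5 (-1.05 ± 0.40 SE, edgeR adjusted p = 0.223). Sema6d had 102, 91.4 and 116 CPM in WT and 63.4, 82.1 and 82.4 in cKO (-0.44 ± 0.13 SE, adjusted p = 0.18). Plxnd1 had 125, 95.7 and 120 CPM in WT and 68.4, 90.2 and 88.6 in cKO (-0.46 ± 0.15 SE, adjusted p = 0.186). In these 3 genes all cKO libraries lay below all WT libraries, as in 15.3% of all tested genes. Without cKO replicate 1, 0 members passed the test, against 0.00571% of genes higher and 0.0457% lower, while the unadjusted p was under 0.05 for 1 higher and 7 lower members, where 8.03% of genes were higher and 7.35% lower at that p.

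**Figure D3:**
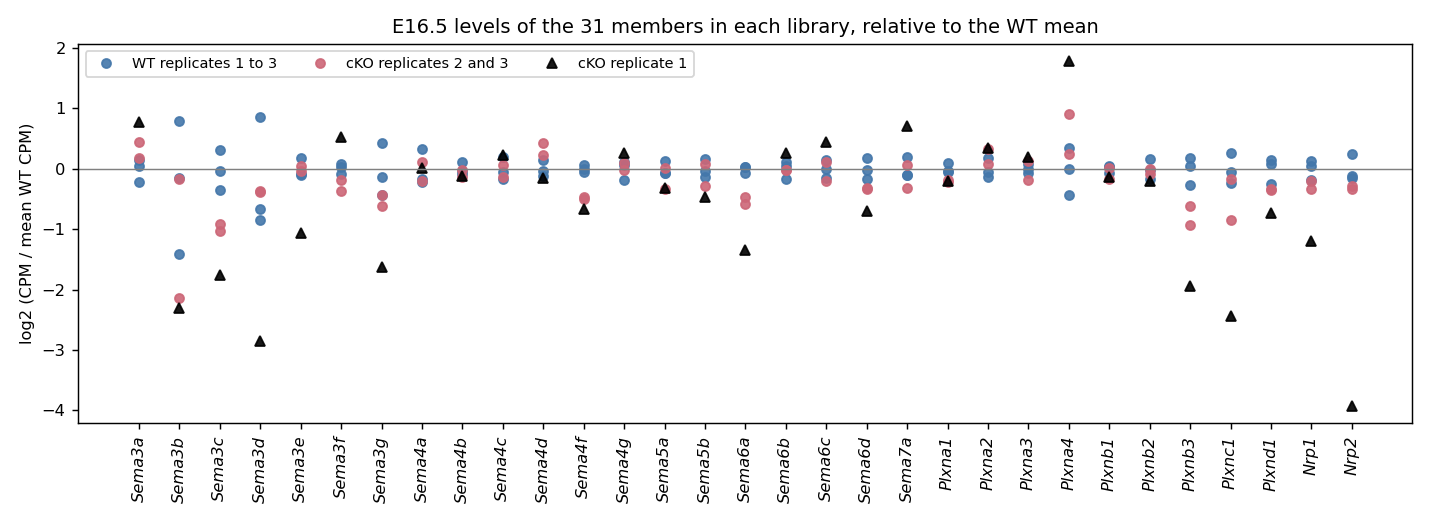
Log2 ratio of each E16.5 library's CPM to the mean WT CPM for the 31 members, with WT libraries in blue, cKO replicates 2 and 3 in red and cKO replicate 1 as black triangles. The triangle lies far from the other cKO points for Nrp2 (22.4 CPM), Plxnc1 (8.47 CPM), Sema3d and Plxna4 (418 CPM).

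The summed levels of vessel and glia markers were lower in the cKO libraries at E16.5. The 9 endothelial and mural markers summed to 531, 234 and 253 CPM in WT and 168, 175 and 200 in cKO, with none at 0, and are given beside Plxnd1. The 12 oligodendrocyte lineage markers, given beside Plxnb3, summed to 227, 242 and 228 CPM in WT and 183, 121 and 152 in cKO, with Opalin at 0 in 5 of the 6 libraries. The 8 microglia markers summed to 134, 67.4 and 76.3 CPM in WT and 32.5, 41.6 and 48.2 in cKO, and the 8 astrocyte markers to 531, 518 and 498 CPM in WT and 210, 310 and 362 in cKO. In each list the cKO sums lay wholly below the WT sums. No gene of these 4 lists passed edgeR's test. At an unadjusted p under 0.05, 7 of 9 endothelial and mural and 7 of 8 microglia markers were lower. So were 2 of 7 tested astrocyte and 2 of 10 tested oligodendrocyte markers, and no gene of these lists was higher. Over all genes, 11.5% were lower and 9.13% higher at that p. DESeq2 called 4, 5, 2 and 2 of these markers lower, against 4.5% of its tested genes. Their part in the member results was not tested.

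Markers of tissue next to the hippocampus also differed between E16.5 libraries. The 6 meningeal fibroblast markers summed to 1100, 121 and 226 CPM in WT and 10.7, 23.2 and 75.6 in cKO, and the 7 choroid plexus and ependyma markers to 4790, 3240 and 39.3 CPM in WT and 7.57, 41.1 and 2470 in cKO. Sema3b followed neither genotype, with 13.4, 6.93 and 2.92 CPM in WT and 1.57, 1.75 and 6.85 in cKO, and Sema3d was highest in WT replicate 1, with 3.68 CPM against 1.28 and 1.13. The part of meninges and choroid plexus in these values was not tested.

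The difference of the cKO effect between the ages passed the test for no member, where 1.16% of 18979 genes did (0.427% higher at P21 and 0.738% lower). At an unadjusted p under 0.05, 3 members were higher and 3 lower, where 9.57% and 10.5% of genes were. DESeq2 called 1 higher, Sema4f, and 2 lower, Plxna2 and Plxna3, against 2.65% and 4.86% of genes. Closest by edgeR was Plxna3, whose effect was lower by 1.07 on the log2 scale at P21 (-1.07 ± 0.21 SE, adjusted p = 0.0556). At E16.5 its levels were 213, 222 and 235 CPM in WT and 256, 243 and 197 in cKO. Sema4f came next (0.59 ± 0.13 SE, adjusted p = 0.0655), with overlapping groups at P21, 52.6 and 47.1 CPM in WT and 51.3 and 54.5 in cKO. Plxna4 differed by -1.83 ± 0.56 (SE, adjusted p = 0.137). Without cKO replicate 3 at E16.5, Plxna3 and Plxna4 passed (edgeR adjusted p = 0.0307 and 0.0447). That fit keeps cKO replicate 1, the library set apart above, where Plxna4 had 418 CPM. No member passed in any other leave-one-out fit, that without cKO replicate 1 at E16.5 included.

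Between the ages in WT, 21 of the 31 members passed the test (67.7%), near the 60.4% of all tested genes that did. At P21 relative to E16.5, 6 members were higher and 15 lower, or 19.4% and 48.4%, where 27.8% and 32.6% of tested genes were. The median change over the members was -0.81 on the log2 scale, and -0.12 over all genes. Age and library set cannot be told apart, since each age has its own table. With WT replicate 1 at P21 left out, 3 members stayed higher: Plxnb3, Sema3e and Sema5a.

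Plxnb3 had the largest rise, from 0.848, 0.678 and 0.930 CPM at E16.5 to 35.3 and 31.4 at P21 on a scale shared by both ages (log2 change 5.34 ± 0.27 SE, edgeR adjusted p = 6.28e-07). The oligodendrocyte lineage markers, of which 10 of 12 rose, had a median change of 5.30, and their part in the rise of Plxnb3 was not tested. Sema3e, the ligand of Plxnd1, rose from 5.88, 5.81 and 7.1 CPM to 54.2 and 60.9 (3.20 ± 0.27 SE, adjusted p = 1.38e-05). Sema5a rose from 31.1, 31.1 and 36.2 CPM to 172 and 198 (2.50 ± 0.14 SE, adjusted p = 9.07e-07). Plxna4, Sema3d and Sema4d rose as well, by 1.18, 1.93 and 0.57. The calls of all these 3 ended in at least 1 leave-one-out fit.

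Of the 7 class 3 semaphorins 3 fell and 2 rose, and of the 6 class 4 semaphorins 3 fell and 1 rose, where 32.6% of all genes fell and 27.8% rose. Sema3f, the repellent that acts through Nrp2, fell from 56.2, 60.5 and 63.4 CPM to 4.07 and 4.46, which was 14.1-fold (log2 change -3.81 ± 0.32 SE, edgeR adjusted p = 1.47e-05). Sema4c fell from 120, 110 and 143 CPM to 11.1 and 8.23 (-3.68 ± 0.20 SE, adjusted p = 1.07e-06). Plxna3 fell from 202, 209 and 224 CPM to 38.3 and 30.2 (-2.63 ± 0.16 SE, adjusted p = 1.88e-06). Sema6c, Sema3a, Sema4g and Sema3c fell too, with log2 changes of -2.59, -2.47, -2.25 and -2.02. Nrp1 fell (-1.20 ± 0.31 SE, adjusted p = 0.00947), and Nrp2 at -1.40 ± 0.81 SE did not pass (0.17). Nrp2 passed when cKO replicate 1 at E16.5, which enters the estimate of spread, was left out (adjusted p = 3.28e-05).

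**Figure D4:**
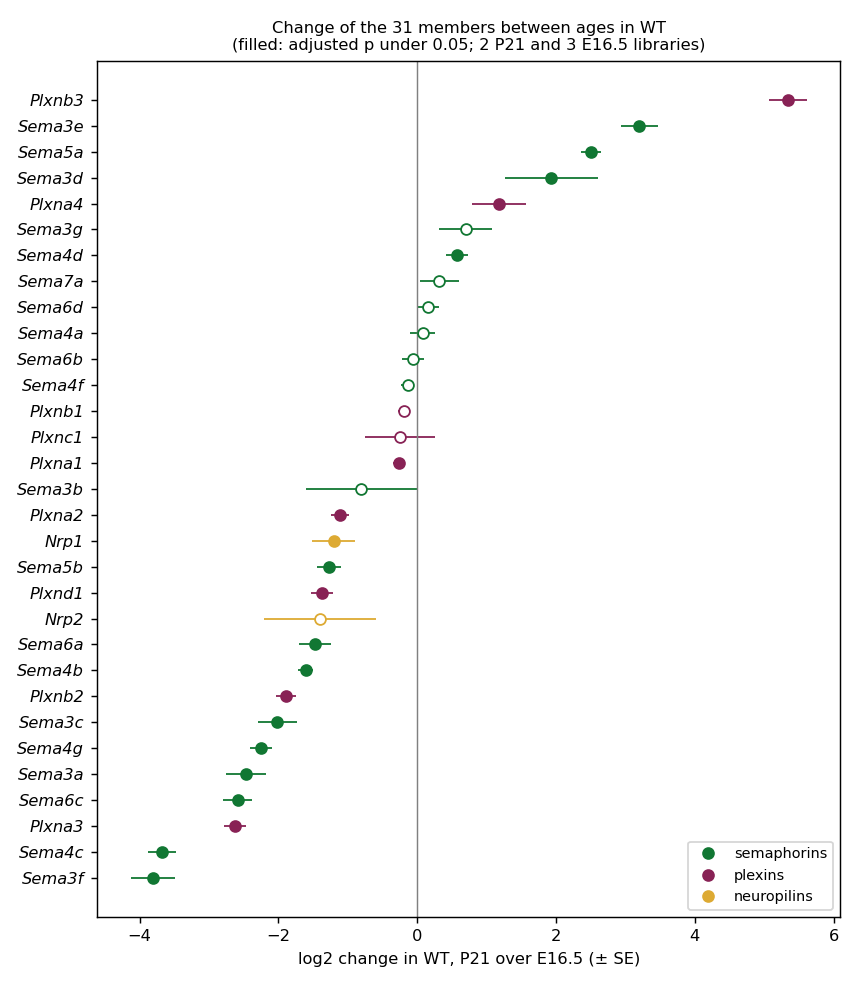
Log2 change in WT from E16.5 to P21 for the 31 members in order, with the standard error as a bar and filled points past an adjusted p under 0.05. Plxnb3 stands alone at the upper end at 5.34, and Sema3f (-3.81) and Sema4c (-3.68) at the lower end.

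Chromatin was described at the starts of the 26 members that RefSeq lists, by the authors' peaks within 1 kb. With 1 library per genotype there is no test. H3K4me3, which marks active starts, was present in both genotypes at 22 of 26 members (84.6%, against 61.7% of 16758 protein-coding genes), in cKO alone at 1, Sema4d (against 1.85%), and in neither at Plxnb3, Sema3a and Sema3g. Those 3 held 2 to 8 CG pairs at most in any window, while the 23 members with a peak ranged from 2 to 39 with a median of 17. These states hold only for the listed starts. The Sema4d peak was 177 bp long (−log10 q of 3.6), and over its gene span WT had 1 H3K4me3 peak of 1979 bp. Sema3a had H3K4me3 in both libraries within 5 kb of its start. Plxnb3, printed above with 3 CG pairs, had no peak of any of the 3 marks within 1 kb in either library.

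H3K27ac, a mark of active regulatory sites, lay at 12 members in both libraries (46.2%, against 33.7% of genes) and in cKO alone at 6, Plxnd1, Sema3e, Sema4a, Sema4f, Sema4g and Sema5b (23.1%, against 16.1%), and at none in WT alone. The cKO list was longer in all, with 24065 peaks against 13006 in WT, from 19288471 and 19291198 tags. H3K27me3, a Polycomb mark of silenced genes, lay at no member's start in WT and at 5 in cKO, Plxnc1, Plxnd1, Sema3d, Sema4f and Sema5b (19.2%, against 9.50% of genes with a peak in cKO alone). Here too the lists differ in length, 15659 peaks in cKO and 4124 in WT, from 17399169 and 18009991 tags.

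Sema5b had the highest such peak, with the authors' fold enrichment of 10.37 over 2044 bp in cKO (chr16:35540845-35542888), while its start had H3K4me3 in both libraries. Plxnd1, which fell at P21, had a peak of 8.42-fold over 651 bp (chr6:115994011-115994661). It also had an H3K27ac peak of 267 bp, called in cKO alone (chr6:115994276-115994542), with a −log10 q of 3.5. Sema4f had both marks in cKO, with a −log10 q of 5.7 for H3K27ac and 4.0 for H3K27me3. Its RNA change at P21 was 0.09 (edgeR adjusted p = 0.676). Plxna3 and Sema6d, which fell at P21, had no H3K27me3 peak, and Plxna3 no H3K27ac peak, at these starts. Over gene spans, Sema3f was the one member with H3K27me3 in WT, with 3 peaks against 5 in cKO.

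**Figure D5:**
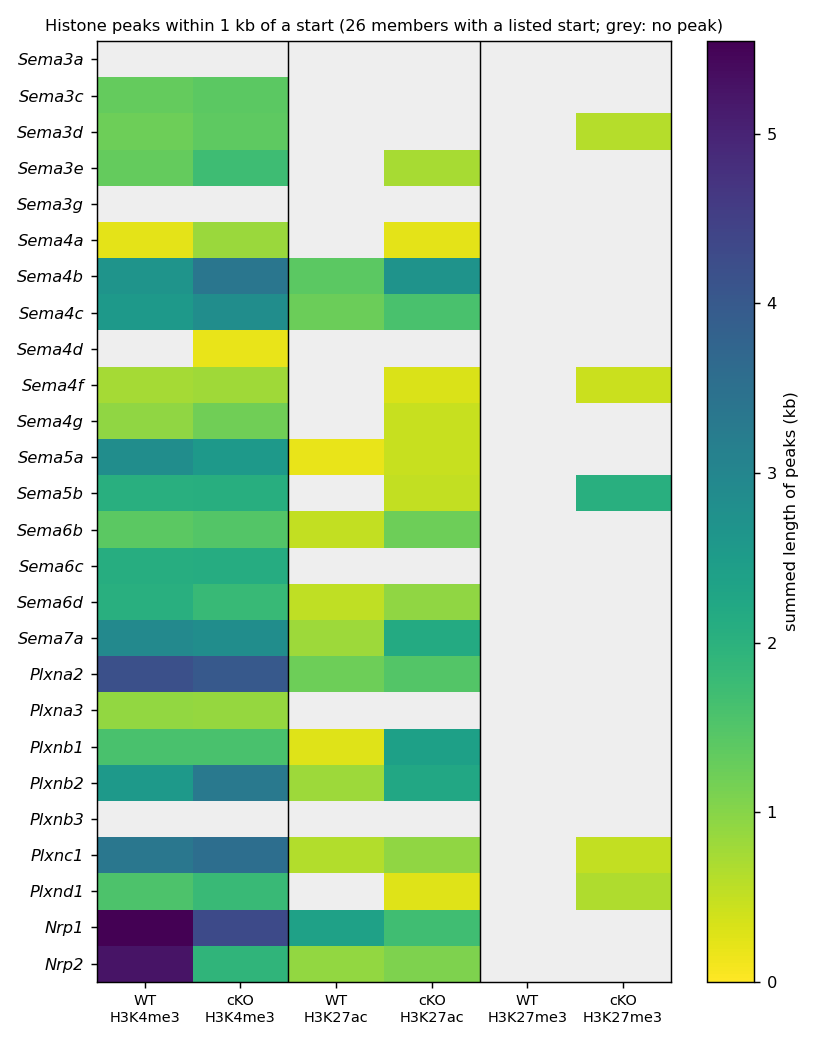
Summed length in kb of histone peaks within 1 kb of the RefSeq starts of 26 members, by mark and genotype, with 1 library each; grey marks no peak. H3K4me3 is found at 22 starts in both libraries, H3K27ac at more starts in cKO, and H3K27me3 at 5 starts in cKO and none in WT.

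Other genes of the pathway were read from lists of co-receptors and of signalling effectors. Of 14 semaphorin co-receptors, 13 were tested at P21, and 1 was lower and none higher. That was Cntn2, an adhesion molecule of axons and myelin, with 133 and 125 CPM in WT and 59.9 and 68.6 in cKO (log2 change -1.01 ± 0.11 SE, edgeR adjusted p = 0.00435). Of 38 genes of plexin signalling, 2 were lower and none higher: Dpysl3, a collapsin response mediator protein, with 103 and 89 CPM in WT and 58.4 and 65.1 in cKO (-0.64 ± 0.12 SE, adjusted p = 0.0242), and Rras2, a small GTPase of the Ras family, with 30.8 and 29.2 CPM in WT and 20.4 and 20.8 in cKO (-0.54 ± 0.12 SE, adjusted p = 0.0382). For comparison, 2.81% of all genes were higher and 3.91% lower, 6.72% in all. The list medians were -0.15 and -0.11, against 0.01 over all genes. DESeq2 called 3 co-receptors lower, Cntn2, L1cam and Nrcam, and 4 signalling genes, Dpysl3, Mical3, Rras2 and Tiam1, and none of either list higher, where 5.45% of its tested genes were lower and 3.1% higher. At an unadjusted p under 0.05, 1 co-receptor was higher and 5 lower, and 2 signalling genes were higher and 11 lower, where 11.7% of all genes were higher and 13.2% lower.

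At E16.5 edgeR called 0 members of either list, and 3 genes in each had an unadjusted p under 0.05, all with a lower level in cKO, out of 13 and 38 tested, where 11.5% of all genes were lower at that p. For the 38 signalling genes this was not above the share of all genes. DESeq2 called 1 lower in each, where 4.5% of its tested genes were lower: Met, a receptor tyrosine kinase that can couple to class B plexins, and Mical2, an oxidoreductase of actin. Met had 16.4, 14.4 and 19.6 CPM in WT and 12.3, 5.54 and 6.45 in cKO (log2 change -1.05 ± 0.32 SE, edgeR adjusted p = 0.18). Mical2 had 65.4, 82.5 and 82.7 CPM in WT and 46, 49.4 and 35.8 in cKO (-0.81 ± 0.15 SE, adjusted p = 0.131). In both genes the cKO libraries lay below all WT libraries, as in 15.3% of all tested genes.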

How the data were processed

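RNA was measured in 10 samples and histone marks in 6 ChIP libraries with 2 inputs, grouped by the sample titles. The authors deposited estimated counts of genes, 1 table an age; the submitters' processing notes name Salmon 1.0.0 and GRCm38, and no source used here says whether strand was used. The authors' deposited tables of comparisons hold log2 fold changes, p-values and a mean-level score from DESeq2 1.26.0, per the same notes; they gave gene symbols. The deposited peak lists hold pileup signal, fold enrichment as a ratio and −log10 p and q values, from MACS 2.2.7.1 per the file headers, called on single libraries.

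Estimated counts were rounded and tested with edgeR 4.0.16 (filterByExpr, TMM, robust quasi-likelihood F test, Benjamini-Hochberg over all tested genes at 0.05), each age alone; the difference between ages and the WT ages used 1 fit of all 10 libraries. DESeq2 1.42.0, other scalings, no filter, a replicate block and leaving out each library were alternatives. CPM are TMM-scaled within an age, or over all libraries for WT ages; SE is the log2 change over the root of F. p-values measure the spread between these few samples.

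The test was run on simulated counts with known changes. Unchanged genes gave small p-values at about the nominal rate. When each simulated gene kept its own dispersion, however, false calls in the per-age fits exceeded the nominal adjusted rate. The false calls were not split by dispersion. An adjusted p just under 0.05 at P21 or E16.5 is therefore less firm than it reads. The 5 members lower at P21 had dispersions at the 5.3 to 47.6 percentile of tested genes; a low estimate also favours a call.

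Every member is accounted for. Full values are given for members past the threshold in a genotype test and, at P21, for the closest member of a class where none passed. At E16.5 such values are not given for every class. The part of that rule on levels per length could not be applied, as no transcript lengths were used. The members and lists were chosen with earlier results of these data known. Of the members, 15 overlap another annotated gene, among them Plxna3, Plxna4 and Sema6d, and reads of overlapping genes may not be separable. Promoters of Plxna1, Plxna4, Sema3b, Sema3f and Sema6a were not used here.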

Additional observations from a re-analysis of the deposited data

How the results depend on the processing

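At P21, 5 members were lower and 0 higher, where 680 and 489 of 17407 genes were. The lower count was 6 with DESeq2 (859 of 15761 genes) and 6 with no filter on low counts (1228 of 31706). It was 4 with upper-quartile scaling (519 of 17407) and 5 with RLE scaling (683 of 17407). In the fit of all 10 libraries it was 2, Plxna3 and Plxnb3 (350 of 18979). Leaving out 1 library moved the lower count both ways. It rose without cKO replicate 1 and fell without either WT replicate, and the count of lower genes over all tested genes moved the same way. Plxnb3 was called under every alternative run; Plxnd1 was lost with upper-quartile scaling (adjusted p = 0.063) and in the fit of all 10 libraries (0.122), where Plxna4 (0.43) and Sema6d (0.0592) were lost too. The causes were not tested.

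Deviations of same-numbered WT and cKO libraries from their group means correlated at -0.01 and -0.01 at P21 and at -0.25, -0.06 and -0.53 at E16.5. With 2 libraries per group the deviations mirror each other, so the P21 values are the same number by construction. At both ages the deviations of a group sum to 0, so these values cannot settle whether the samples were paired. Same-numbered libraries did share their Xist level, so at P21 the block is also the fit with sex as a covariate. With the replicate block, 4 members were lower and 0 higher at P21 (Plxnd1 lost, adjusted p = 0.0744, Plxna3, Plxna4, Plxnb3 and Sema6d called), and 0 in either direction in the E16.5 and age-difference tests. With sex as a covariate at E16.5, from a limit of 1000 Xist counts, 0 members passed either way, and 1 higher and 6 lower had an unadjusted p under 0.05.

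At E16.5 the count of lower members was 3 with DESeq2, 1 (Sema4f) with no filter and 1 (Sema4f) in the fit of all 10 libraries, and 0 otherwise, leave-one-out fits included. For the difference between ages DESeq2 gave 1 higher and 2 lower and no filter 1 lower (Plxna3); leave-one-out fits gave 0 to 2 lower. In WT between ages, leave-one-out fits gave 3 to 6 members higher, with 3 without WT replicate 1 at P21. Of the alternatives for the WT ages, those chosen after seeing the data were the 5 WT libraries alone, RLE scaling, and the fit without cKO replicate 1 at E16.5. Over gene spans in place of starts, H3K27me3 was at 1 member in WT and 9 in cKO. With peaks at starts limited to a −log10 q of at least 5, H3K27me3 was in cKO alone at 4 members (against 8.26% of genes), without Sema4f. H3K27ac was then in cKO alone at 7 (against 18.5%). Plxnd1 and Sema5b had no H3K27ac peak at that limit, while Plxnb1, Plxnb2 and Sema6d kept it in cKO alone. No called value changed direction in any alternative. With 1 P21 library left out, the lone library of its group is assumed to vary like the other group. Depth limits the lowest members, such as Plxnb3 at E16.5 at 0.224 to 0.974 CPM.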

Other observations

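Over gene spans and 1 kb on either side, the 31 members held 38 H3K27ac peaks in WT and 90 in cKO, a ratio of 2.37, where the whole lists had a ratio of 1.85. The number of peaks was higher in cKO at 18 members, lower at 1 and equal at 12. Sema4d, the ligand of Plxnb1, had 3 peaks covering 920 bp in WT and 13 covering 4295 bp in cKO, and Plxnb1 had 1 peak of 265 bp in WT and 5 covering 2789 bp in cKO. Neither gene's RNA passed the test at P21. With 1 library per genotype these are values without a test, and the cKO list was longer over the whole genome.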
